A study of Mus musculus with 194 samples.

Results

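The genes described here encode the nuclear subunits of oxidative phosphorylation, with the assembly factors that share their names. They were chosen by symbol, as genes beginning with Ndufa, Ndufb, Ndufc, Ndufs or Ndufv, Uqcr, Cox4 to Cox8 or Atp5, or named Sdha to Sdhd, with a mean of at least 5 CPM (a gene's counts relative to the library total) in any brain structure. Of 92 genes with such symbols, 87 reached this level, against 11945 of the 19363 genes in the table. They comprised 7 core and 29 accessory subunits of complex I, 4 of complex II, 8 of complex III, 16 of complex IV, 14 of complex V and 9 assembly factors. The rule did not use any difference between groups, and all 87 genes passed the count filter in every fit. Just inside the limit lay Cox4i2, at 5.46 CPM in its highest structure, and just outside it lay Ndufa4l2 at 3.65 and Atp5g2 at 3.13. Cox7b2, Cox8b and Cox8c were also left out.

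Male C57BL/6OLAHSD mice of 6 to 7 weeks at arrival received cocaine at 20 mg/kg by intraperitoneal injection after 3 daily saline injections for habituation. Acute mice received a single dose, repeated mice (labelled Chronic) received 5 daily doses, and challenge mice received a dose after 21 days of abstinence from the repeated course. The amygdala (Amy), lateral hypothalamus (LH), limbic cortex (LCtx) and both parts of the striatum, dorsal (DS) and nucleus accumbens (NAc), were taken 1, 2 or 4 hr after the last dose or at 0 hr. At 0 hr the acute mice were cocaine-naive, the repeated mice were 24 hr past their 4th dose, and the challenge mice were abstinent. The 3′-RNA-seq libraries came from 166 tissue samples of 48 mice and were sequenced in 9 runs, with 28 tissue samples in 2 runs each. Total counts per library were 1193306 to 10367769, with a median of 3296647.5.

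Experience and run coincide for most structures, so the comparisons within a run come first. A run shared by all 3 experiences holds 8 DS libraries of each, with 2 mice per time point. Another run holds Amy and LH of 8 acute and 8 repeated mice. Acute, repeated and challenge mice came from different cohorts even within a run, so cohort and experience cannot be told apart. The dissections carried their own markers. The 7 striatal markers summed to 1.01 to 1.16% of counts in DS libraries of the shared run and to 0.019 to 0.064% in acute LCtx, and the 5 hypothalamic markers summed to 0.943 to 1.62% in LH and to 0.038 to 0.072% in acute DS. Genes encoded by mitochondrial DNA were represented by 0 rows, so subunits from that genome were not analysed here.

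Complex I and complex II pass electrons from NADH and succinate to ubiquinone, complex III passes them on to cytochrome c, and complex IV passes them to oxygen. Complexes I, III and IV pump protons across the inner mitochondrial membrane, and complex V, the ATP synthase, uses the gradient to make ATP. Neurons take most of their ATP from this pathway, and several complex IV subunits exist as isoforms that differ between tissues. In bulk tissue, fewer cells of a type and less RNA per cell cannot be told apart. The p-values measure the spread between the mice sampled. Many of these genes have processed pseudogenes, and reads shared with such copies may have been left uncounted, so levels are compared for a gene across libraries and not between genes.

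Upstream sequence is shown as an example for 3 genes with increases in several comparisons, Ndufb4 and Atp5k, which have matches to the NRF1 motif, and Uqcr11, which has an ETS match. They were chosen after their values and motif matches were seen. Other genes with increases in several comparisons, such as Atp5j2, Ndufa3 and Cox6b1, had 0 matches to either motif. NRF1 and ETS factors of the GABP type are known regulators of respiratory genes. The 250 bases before the start are given 5′ to 3′ on the gene's strand (RefSeq, GRCm38.p6), at chr16:37654369-37654618, chr5:108434400-108434649 and chr10:80406822-80407071, all on the minus strand. Capitals mark motif matches on either strand.
Ndufb4: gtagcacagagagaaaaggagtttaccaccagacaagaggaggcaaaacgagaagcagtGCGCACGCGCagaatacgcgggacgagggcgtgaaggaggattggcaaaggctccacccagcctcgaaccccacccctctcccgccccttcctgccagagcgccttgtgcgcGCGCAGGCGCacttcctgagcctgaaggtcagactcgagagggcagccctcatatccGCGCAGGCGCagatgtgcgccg
Atp5k: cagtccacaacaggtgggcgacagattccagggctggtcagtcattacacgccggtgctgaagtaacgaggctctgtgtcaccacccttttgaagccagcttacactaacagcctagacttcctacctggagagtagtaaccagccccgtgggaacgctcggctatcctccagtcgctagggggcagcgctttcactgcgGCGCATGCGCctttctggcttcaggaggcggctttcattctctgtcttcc
Uqcr11: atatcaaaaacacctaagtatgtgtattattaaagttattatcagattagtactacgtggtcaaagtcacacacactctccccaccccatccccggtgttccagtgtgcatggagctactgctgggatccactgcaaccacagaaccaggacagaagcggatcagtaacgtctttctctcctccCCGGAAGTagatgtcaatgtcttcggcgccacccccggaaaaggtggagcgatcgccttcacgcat
The table held promoters for 71 of the 87 genes. In windows of 300 bases, the NRF1 motif (GCGC, any base, T, then GCGC, on both strands) was present in 17 of 71 (23.9%), against 4.8% of 27025 promoters. AAGATGGC (YY1) was present in 9 (12.7%) against 2.9%, CCGGAAGT (ETS) in 5 (7.0%) against 4.0%, and TCAAGGTCA (ERR) in 2 (2.8%), Atp5g3 and Sdhd, against 0.4%. These are descriptions of letters in a window and not of binding.

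In DS of the shared run, more respiratory subunit genes were higher than lower in challenge mice relative to acute mice. The difference averages the 4 time points, so it includes abstinent and naive mice at 0 hr, which had no cocaine that day. In challenge mice 36 of 87 genes were higher, where 8.62% of all genes tested were, and 2 were lower, where 8.1% of all genes were. A gene was called when its adjusted p in edgeR's quasi-likelihood test was under 0.05 and its fold over 1.2. The median difference over the 87 genes was 0.24 on the log2 scale against -0.01 over all genes, and 72 of 87 differences were positive. Repeated mice lay between, with 17 genes higher and 3 lower than in acute mice, where 6.9% and 5.79% of all genes were called, and a median of 0.12. Both comparisons share the acute libraries. Depth went with experience in this run. Total counts were 2096787 to 2704694 in acute, 1689860 to 2170571 in repeated and 1269391 to 1805910 in challenge libraries. The part of depth in these differences was not tested.

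The accessory subunits of complex I held the most calls. In challenge mice, 16 of 29 rose, with a median of 0.35, against 1 of 7 core subunits with a median of 0.14. Ndufb4, an accessory subunit of the membrane arm, lay at 38.2 to 53.8 CPM in the 8 acute libraries (median 47.1), at 63.2 to 85.4 in the 8 repeated libraries (median 76.0) and at 56.1 to 107 in the 8 challenge libraries (median 75.4). The acute libraries did not overlap with either of the other groups. The difference was 0.74 ± 0.11 (log2 ± SE, adjusted p = 4.7e-07) for challenge mice and 0.70 ± 0.11 (adjusted p = 1.7e-06) for repeated mice. Ndufa3, another accessory subunit, lay at 438 to 505 CPM in acute, 566 to 675 in repeated and 655 to 766 in challenge libraries. Its acute libraries were again lower than all others. Among core subunits, Ndufs8, which carries iron-sulfur clusters, rose in challenge mice by 0.32 ± 0.08 (adjusted p = 0.0031). Ndufs1 (-0.13, adjusted p = 0.16) and Ndufv1 (0.15, adjusted p = 0.12), which hold iron-sulfur clusters and the NADH site, were not called.

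Complex II was split. Sdhb, its iron-sulfur subunit, lay at 213 to 243 CPM in acute and 262 to 377 in challenge libraries, and rose by 0.47 ± 0.06 (adjusted p = 3.3e-08). Sdhc, a membrane anchor of the same complex, lay at 177 to 225 CPM in acute and 119 to 175 in challenge libraries, and fell by 0.41 on the log2 scale (SE 0.07, adjusted p = 9.5e-06). The groups did not overlap for either gene. The other anchor, Sdhd, rose by 0.28, and the flavoprotein Sdha was not called at -0.19 (adjusted p = 0.005, below the fold limit).

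In complex III, 4 of 8 genes rose in challenge mice. Uqcr11, its smallest accessory subunit, lay at 404 to 487 CPM in acute (median 429), 519.7 to 688 in repeated (median 620.3) and 539 to 678 in challenge libraries (median 628). Acute libraries lay below both other groups, which overlapped with each other. The difference was 0.53 ± 0.05 (adjusted p = 2.4e-12) for challenge mice and 0.46 ± 0.05 (adjusted p = 2.3e-10) for repeated mice. The catalytic and core subunits Uqcrfs1 (-0.12, adjusted p = 0.16) and Uqcrc2 (0.15, adjusted p = 0.091) were not called.

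In complex IV, 7 of 16 genes rose in challenge mice and 3 in repeated mice. Cox7a2l lay at 104 to 133 CPM in acute and 148 to 223 in challenge libraries, and rose by 0.62 ± 0.08 (adjusted p = 8.2e-09). Cox6b1, an accessory subunit on the intermembrane side, lay at 511 to 648 CPM in acute, 701 to 796 in repeated and 717 to 895 in challenge libraries. Neither gene overlapped between acute and challenge. The muscle-type isoform Cox6a2 rose in challenge mice by 0.55 ± 0.18 (adjusted p = 0.025). Its widely expressed partner Cox6a1 rose in both, by 0.29 for challenge mice and 0.34 for repeated mice. Cox5a, a subunit on the matrix side, was not called in challenge mice (-0.06, adjusted p = 0.47).

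Complex V had 4 genes higher and 1 lower in challenge mice. Atp5j2, a membrane-part subunit, lay at 368 to 468 CPM in acute, 445 to 572 in repeated and 503 to 718 in challenge libraries, and rose in challenge mice by 0.55 ± 0.05 (adjusted p = 3.3e-12). Its acute and challenge libraries did not overlap, and acute and repeated libraries did. Atp5j, a stalk subunit, moved the other way, from 575 to 650.2 CPM in acute to 443 to 533 in repeated and 392 to 511 in challenge libraries. It fell in challenge mice by 0.38 on the log2 scale (SE 0.05, adjusted p = 3.3e-08), with no overlap with acute. In the head and central stalk, the alpha subunit Atp5a1 (-0.01, adjusted p = 0.86) and the gamma subunit Atp5c1 (adjusted p = 0.98) were not called, nor was the catalytic beta subunit Atp5b at 0.12 (adjusted p = 0.019, below the fold limit). Among the 9 assembly factors, Ndufaf2 (0.39 ± 0.13, adjusted p = 0.028) and Ndufaf3 (0.35), both for complex I, rose in challenge mice.

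**Figure D1:**
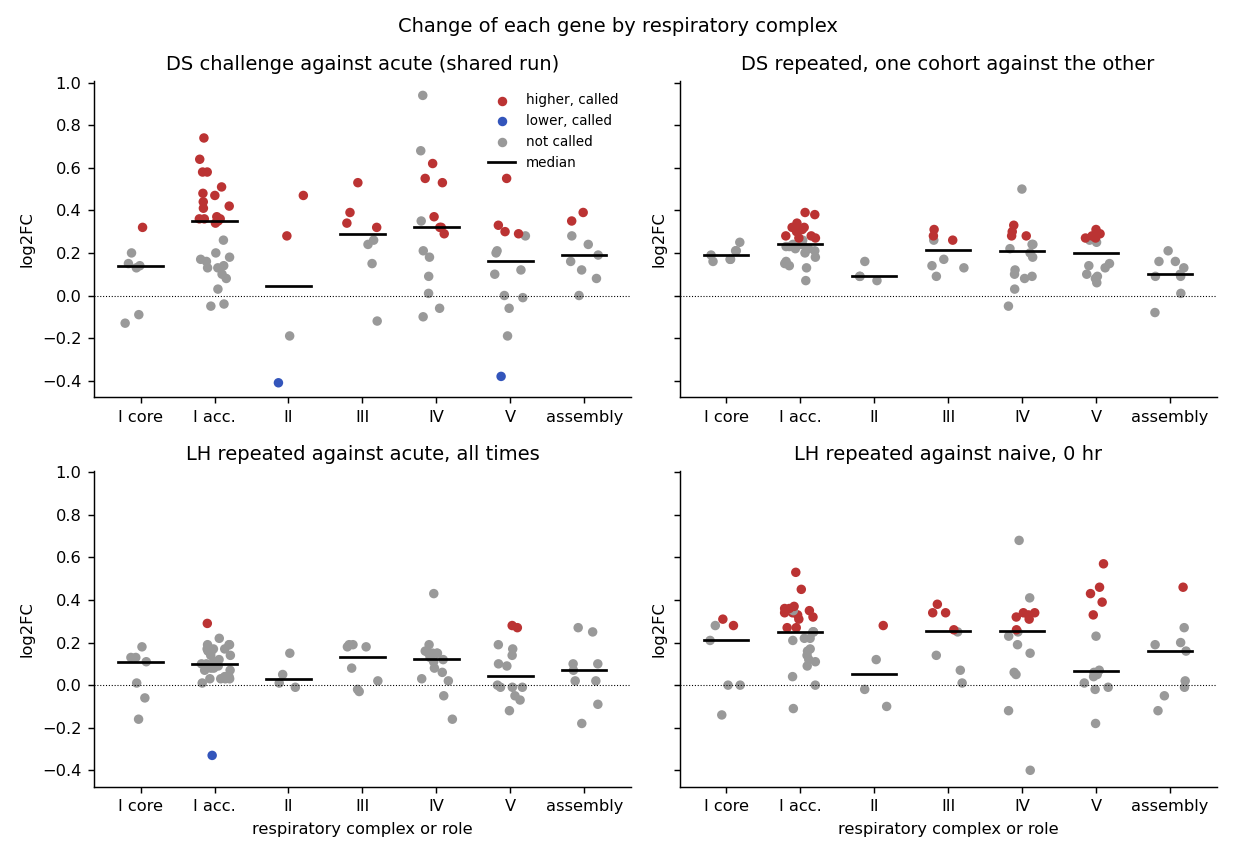
Differences between groups (log2FC, vertical axis) for each of the 87 genes, by respiratory complex or role (horizontal axis), in 4 comparisons, with red points called higher, blue points called lower, grey points not called, and a line at each median. In challenge DS the complex I accessory subunits had a median of 0.35, and in LH at 0 hr they had a median of 0.25.

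At 0 hr in DS, before any cocaine on that day, abstinent mice had 16 genes higher and 2 lower than naive mice, where 2.05% and 1.43% of all genes were called, with a median of 0.20. Atp5j2 was at 468 and 455 CPM in the 2 naive mice and at 701 and 718 in the 2 abstinent mice, a difference of 0.63 ± 0.10 (adjusted p = 3.9e-05). Sdhb was at 240.1 and 243 CPM in naive and 363 and 332 in abstinent mice (0.54 ± 0.12, adjusted p = 0.0043), and Sdhc was at 225 and 209 against 136 and 132 (-0.68 ± 0.14, adjusted p = 0.0015). All 3 genes were separated between the pairs of mice. Leaving out a single mouse left 5 to 18 genes called, and 5 remained without naive replicate 4 and 9 without naive replicate 3, against 10 and 11 without abstinent replicate 1 or 2. Repeated mice at 0 hr had 2 genes higher (Ndufa12 and Cox6b1) and 3 lower (Sdhc, Atp5j and Atp5f1), where 1.02% and 0.838% of all genes were called, with a median of 0.01. That count fell to 0 without repeated replicate 3, to 1 without naive replicate 3 and to 2 without naive replicate 4.

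Other gene lists moved in the same DS comparison. In challenge mice, 20 of 75 mitochondrial ribosomal protein genes rose and 0 fell (median 0.19), 26 of 80 cytosolic ribosomal protein genes rose and 2 fell (median 0.19), and 11 of 38 proteasome genes rose (median 0.17). Enzymes of the TCA cycle, which feeds the chain with NADH, had 0 of 16 called (median 0.02). Of 16 glycolytic genes 3 were higher and 1 lower (median 0.15). Among 11 regulators of mitochondrial biogenesis 2 were called, the coactivator Ppargc1a (-0.59 ± 0.13, adjusted p = 0.00054) and the nuclear receptor Esrrg (-0.93 ± 0.19, adjusted p = 0.00025), and both fell. Atpif1, the inhibitor of ATP synthase, rose by 0.44 ± 0.05 (adjusted p = 5.5e-10). Cyc1, a complex III subunit whose symbol the rule did not match, was at 0.16 (adjusted p = 0.064).

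Markers of other cells also differed between these libraries. Of 7 oligodendrocyte markers 6 were lower in challenge mice, with a summed level of 1.15 to 1.32% of counts in acute and 0.707 to 1.02% in challenge libraries. All 4 erythroid markers tested were higher, at 0.027 to 0.035% in acute and 0.034 to 0.082% in challenge libraries, and the heme enzyme gene Alas2 was at 0 in 11 libraries of the series. Repeated libraries held 0.916 to 1.13% and 0.022 to 0.043%. In challenge mice 1 of 5 microglial and 1 of 5 endothelial markers were also higher, and 1 of 6 mural markers was lower. Of 7 striatal, 5 neuron and 6 astrocyte markers, 1 in each list was higher and 1 lower. In repeated mice 1 of 7 oligodendrocyte markers was lower, 1 of 5 endothelial markers was higher, and of 5 microglial markers 2 were higher and 1 lower. Of 6 astrocyte and 7 striatal markers 1 in each list was higher and 1 lower, and 1 of 5 neuron markers was higher. At 0 hr in abstinent mice 5 of 7 oligodendrocyte markers were lower (median -0.59) and 1 of 4 erythroid markers was higher. Of 7 striatal and 6 astrocyte markers 1 in each list was higher and 1 lower there. At 0 hr in repeated mice 1 of 5 endothelial markers was higher (median 0.71) and 1 of 7 oligodendrocyte markers was lower. Of 7 striatal markers 1 was higher and 1 lower. The part of these cells in the subunit differences was not tested.

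The level of the 87 genes as a whole also differed between runs. They took 2.73 ± 0.10% of counts in acute, 2.95 ± 0.08% in repeated and 3.14 ± 0.11% in challenge DS libraries of the shared run (SD, n = 8 each). The same tissue of the same 8 mice per experience, sequenced in other runs, gave 4.00 ± 0.25%, 3.35 ± 0.09% and 3.70 ± 0.16%. All 8 mice of each experience were lower in the shared run, and the mean log2 level of the 87 genes was lower there, at -0.48 for acute mice, -0.19 for repeated mice and -0.22 for challenge mice. The order of the experiences therefore differed, with acute lowest in the shared run and highest where acute mice had a run of their own. Ndufb4 showed the same: its medians were 161 CPM in 16 acute, 77.2 in 17 repeated and 109.6 in 15 challenge libraries of the other runs. Run and experience cannot be told apart in that second set, and only the repeated and challenge mice shared a run there.

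**Figure D2:**
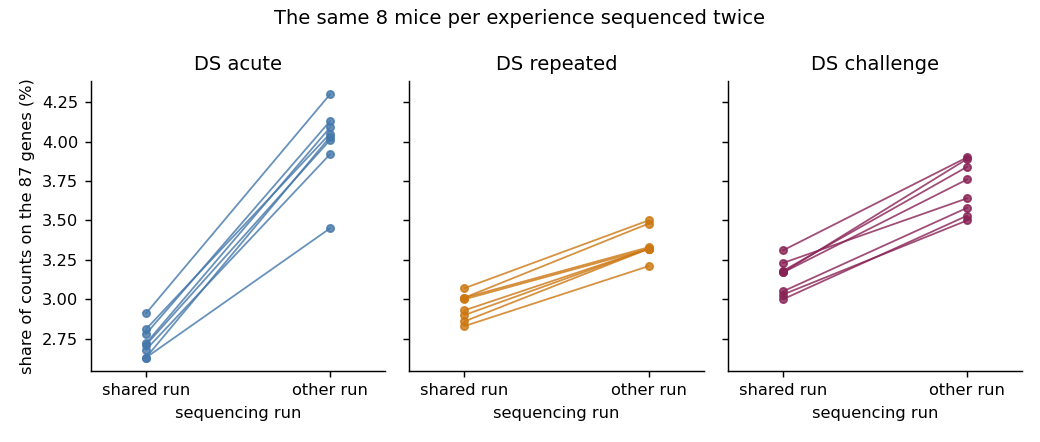
Share of counts on the 87 genes (%, vertical axis) for 8 DS mice per experience, each sequenced in the shared run and in another run (horizontal axis), with a line joining the libraries of a mouse. Every line rises toward the other run, and acute mice rise from a mean of 2.73% to 4.00%.

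Challenge and repeated mice could be compared in both runs. In the shared run 5 genes were higher and 0 lower in challenge than in repeated mice, where 1.81% and 1.87% of all genes were called. In the other run 7 were higher and 0 lower, where 5.23% and 5.93% were called. The median was 0.12 in both. In the other run the repeated group also held mice of a second cohort, which the model did not separate, so the sets of mice differ. Atp5j2 (0.26 ± 0.05 and 0.27 ± 0.05) and Ndufaf2 (0.47 and 0.29) were called in both runs, being 40.0% of the first list and 28.6% of the second, and all mice of the shared run were also in the other. Ndufaf7, a complex I assembly factor, led in the shared run (0.49 ± 0.15, adjusted p = 0.04), and Cox7a1 led in the other run (0.54 ± 0.18, adjusted p = 0.02). Oligodendrocyte markers were lower in challenge mice, 4 of 7 in the shared run (median -0.39) and 7 of 7 in the other (-0.47), and erythroid markers were higher, 2 of 4 and 4 of 5. In the shared run 1 of 5 microglial and 1 of 5 endothelial markers were lower, and in the other run 3 of 4 cortical excitatory markers (median 0.92) and 2 of 4 choroid plexus markers, Ttr among them (0.29, adjusted p = 0.038), were higher. Cytosolic ribosomal protein genes were higher too, 17 of 80 and 23 of 81. What part these lists had in the subunit differences was not tested.

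Mice of the same experience also differed. The other run held repeated DS mice of 2 cohorts, and in the 9-mouse cohort 23 genes were higher and 0 lower than in the 8-mouse cohort, where 2.92% and 5.13% of all genes were called. The median was 0.21, and 85 of 87 differences were positive. The share of counts was 3.44 to 4.05% in the 9 mice and 3.21 to 3.50% in the 8 mice. Ndufa11 (0.39 ± 0.05, adjusted p = 2.3e-08), Cox4i1 (0.33 ± 0.04, adjusted p = 1.9e-08), Uqcrq (0.31 ± 0.04, adjusted p = 1.1e-06) and Atp5j2 (0.31 ± 0.04, adjusted p = 4.6e-07) led their complexes. Of the 36 genes higher in challenge mice in the shared run, 19 (52.8%) were also higher between these cohorts, which is 82.6% of the 23. The 8-mouse cohort supplied the repeated mice of the shared run. In this comparison 21 of 81 cytosolic ribosomal protein genes were also higher (median 0.20), and 4 of 5 endothelial markers were lower, at 0.014 to 0.027% of counts against 0.023 to 0.031%. The choroid plexus marker Ttr (0.59, adjusted p = 2.6e-05) and the interneuron marker Pvalb (0.44, adjusted p = 0.0012) were higher, each the single gene called of the 3 tested from its list, and 1 of 6 mural markers was lower. Their part in the result was not tested.

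Most of these genes are short. Their annotated principal transcripts had a median length of 865 nt (371 to 3632 nt), and 51 of 87 (58.6%) were under 1000 nt, against 5.9% of the genes tested in DS. In the DS challenge comparison the 33 members under 700 nt had a median difference of 0.32, and the 216 other genes of that length also had a median of 0.32. Between 700 and 1000 nt the medians were 0.18 for 18 members and 0.22 for 447 other genes. Between 1000 and 2000 nt they were 0.24 for 27 members and 0.09 for other genes, and above 2000 nt 0.08 for 9 members and -0.05 for others. In Amy of repeated mice, members under 700 nt had a median of 0.17 and other genes of that length 0.08. In LH of repeated mice at 0 hr these medians were 0.27 and 0.25. In DS the shortest genes thus had larger medians than the longest, in members and other genes alike, though member medians did not fall steadily. The part of transcript length in the result was not tested.

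**Figure D3:**
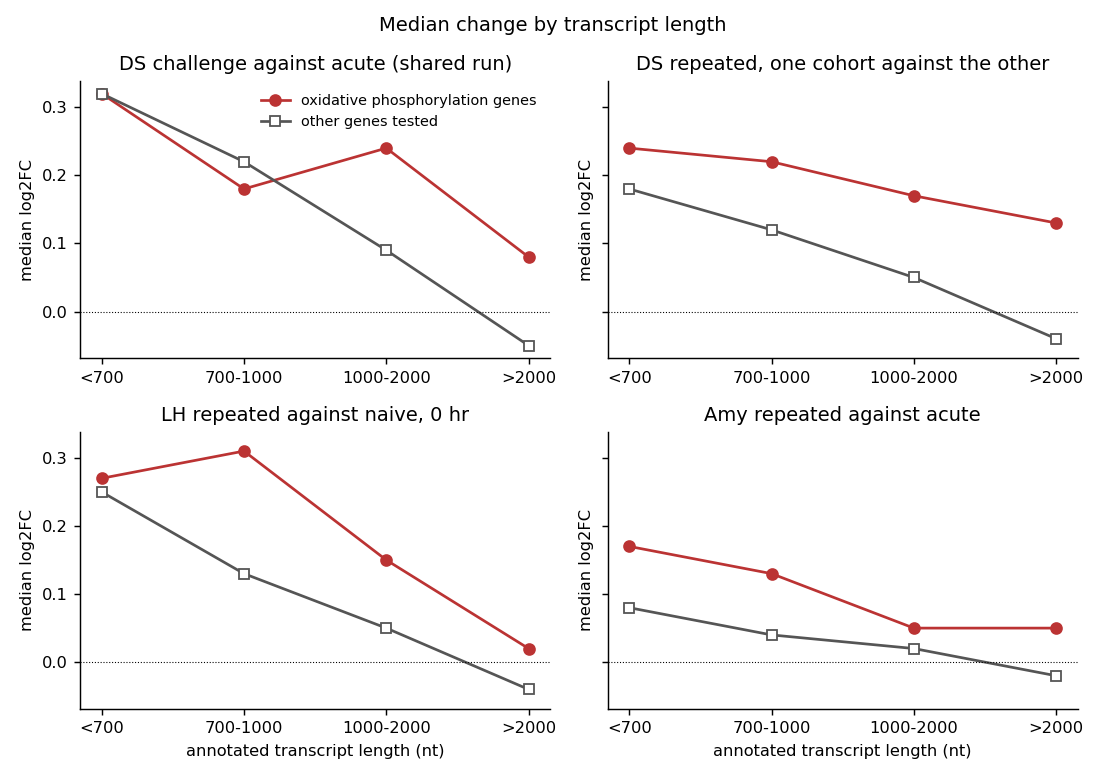
Median difference (log2FC, vertical axis) by annotated transcript length in nt (horizontal axis) for the 87 genes (filled circles) and all other genes tested (open squares) in 4 comparisons. In challenge DS both lines start at 0.32 for transcripts under 700 nt and end at 0.08 and -0.05 above 2000 nt.

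In Amy of repeated mice, 10 genes were higher and 2 lower than in acute mice, where 4.6% and 4.32% of all genes were called, with a median of 0.10. Complex III held 4 of the increases (Uqcr11 0.31, Uqcrc1 0.31, Uqcrq 0.27 and Uqcr10 0.26) and complex V held 3 (Atp5k, Atp5d and Atp5e), while complex IV had 0 of 16 called. Atp5k, a membrane-part subunit of ATP synthase, lay at 505 to 561 CPM in 8 acute libraries (median 544) and 575 to 753 in 8 repeated libraries (median 685), with no overlap, and rose by 0.35 ± 0.04 (adjusted p = 2.4e-07). Ndufs5, an accessory complex I subunit, lay at 35.0 to 57.6 CPM in acute and 31.1 to 43.9 in repeated libraries, which overlapped, and fell by 0.34 on the log2 scale (SE 0.08, adjusted p = 0.0028). The core subunit Ndufs3 fell by 0.28.

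At 0 hr in Amy, Atp5k was at 548 and 555 CPM in naive and 753 and 694 in repeated mice (0.42 ± 0.09, adjusted p = 0.014). It was called with Ndufb7 (0.38) and Ndufa3 (0.36), a count of 3 higher and 0 lower where 0.354% and 0.244% of all genes were called. The count was 11 with DESeq2, 10 without a filter and 9 with 0 hr libraries only. Leaving out any of the 4 mice reduced this count, to 1 without repeated replicate 2 and to 0 without repeated replicate 1 or either naive replicate. Of 7 striatal markers 6 were lower in repeated Amy libraries, at 0.072 to 0.127% of counts against 0.117 to 0.175% in acute ones, and 3 of 5 endothelial markers were higher, at 0.019 to 0.029% against 0.014 to 0.024%. Over all times 2 of 3 cortical excitatory (median 0.30) and 2 of 4 erythroid markers (0.35) were higher, 1 of 3 choroid plexus and 1 of 6 astrocyte markers were lower, and at 0 hr Ttr was lower (-0.99). Their part in the subunit differences was not tested.

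LH of the same mice had 3 genes higher (Ndufa3 0.29, Atp5k 0.28 and Atp5e 0.27) and 1 lower (Ndufs5) in repeated than in acute mice, where 2.01% and 2.76% of all genes were called. The median was 0.10, and 70 of 87 differences were positive. Atp5k lay at 489.7 to 612 CPM in acute libraries (median 566) and 605 to 741 in repeated libraries (median 667), which met at their ends. Ndufs5 lay at 59.2 to 69.4 CPM in acute and 43.4 to 60.4 in repeated libraries, and fell by 0.33 on the log2 scale (SE 0.07, adjusted p = 0.00073). The count of 4 fell to 2 without acute 0 hr replicate 1 or acute 1 hr replicate 1. All 4 genes were called in Amy as well, in tissue of the same mice. A test of the difference between the effects in Amy and LH called 0 of 87 genes, where 0.913% of all genes were called. An unadjusted p under 0.05 was found for 7 genes, and DESeq2 also called 0. The effect on Atp5d was larger in Amy by 0.21 ± 0.05 (adjusted p = 0.028, below the fold limit). Over all times in LH, 2 of 4 cortical excitatory markers (median -0.64), 2 of 7 striatal markers (-0.41) and Ttr (-0.69, adjusted p = 1.7e-07) were lower in repeated mice, 2 of 5 endothelial and 1 of 5 microglial markers were higher, and of 6 astrocyte markers 1 was higher and 1 lower, and the part of these markers in the subunit differences was not tested.

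More LH genes were called at 0 hr. Repeated mice 24 hr past their last dose had 32 genes higher and 0 lower than naive mice, where 1.98% and 1.03% of all genes were called, with a median of 0.23. The accessory complex I subunits held 13 of these, complex IV 6, complex V 5 and complex III 4. Atp5k was at 489.7 and 511 CPM in naive and 705 and 741 in repeated mice (0.57 ± 0.07, adjusted p = 2e-06). Ndufa3 was at 554 and 694 CPM against 876 and 866 (0.53, adjusted p = 1.1e-05). Both genes were separated between the groups of 2 mice. Uqcr10 of complex III was at 651 and 618 CPM against 789 and 823 (0.38 ± 0.07, adjusted p = 0.00044), and Cox6b1 was at 954 and 889.8 against 1156 and 1116 (0.34 ± 0.06, adjusted p = 0.00051). Sdhb was at 395 and 396 CPM against 467 and 466.2 (0.28 ± 0.07, adjusted p = 0.017). The core subunits Ndufs7 (0.31) and Ndufv2 (0.28) and the assembly factor Ndufaf8 (0.46) were called too, and Atp5a1 (-0.02, adjusted p = 0.92) and the catalytic complex II subunit Sdha (-0.10, adjusted p = 0.55) were not. Leaving out a mouse left 20 to 29 genes called, the lowest counts being 20 without naive replicate 1 and 21 without repeated replicate 1.

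The share of counts on the 87 genes at 0 hr was 3.75 and 3.78% in naive and 4.29 and 4.36% in repeated LH. Naive values lay below the range of repeated LH libraries at all times, 4.06 to 4.36%. The 0 hr difference and that of the later times were compared directly. Atp5k (by 0.39 ± 0.09, adjusted p = 0.033) and Atp5j2 (by 0.35) differed more at 0 hr, which is 2 of 87 genes where 0.148% of all genes were called, and the median over the members was 0.18. The count was 7 with DESeq2 and 5 without a filter. Cytosolic ribosomal protein genes moved in the same comparison, with 35 of 81 higher and 1 lower in repeated LH at 0 hr (median 0.24), while 0 of 16 TCA cycle genes were called (median -0.01). Ttr, a choroid plexus marker, was lower in repeated LH at 0 hr (-1.72 ± 0.17, adjusted p = 1.1e-08), and its effect also differed between 0 hr and later (-1.36 ± 0.20, adjusted p = 0.00033). The choroid plexus markers summed to 0.011 to 0.039% of counts in acute and 0.007 to 0.015% in repeated LH at all times. At 0 hr 2 of 7 striatal markers and 1 of 4 cortical excitatory markers were lower as well, and 1 of 5 endothelial, 1 of 5 hypothalamic and 1 of 6 astrocyte markers were higher. The part of these markers in the subunit differences was not tested.

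**Figure D4:**
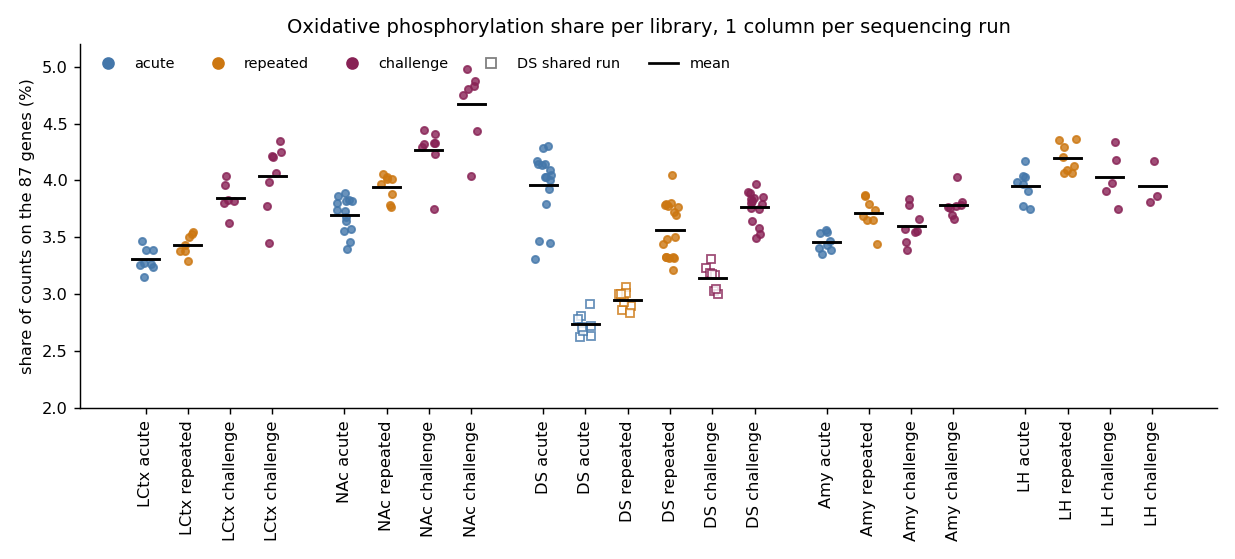
Share of counts on the 87 genes (%, vertical axis) in each library, by structure and experience with a column for each sequencing run (horizontal axis), with a line at each mean and open squares for the DS run shared by all experiences. The shared DS run is lowest, with means of 2.73 to 3.14%, and challenge NAc is highest, with means of 4.27 and 4.67% in 2 runs.

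Time after cocaine was tested against 0 hr mice, which were taken without an injection that day, so the injection itself and cocaine cannot be told apart. With experience-by-time groups, the F test called 0 of 87 genes in LCtx, where 0.35% of all genes were called, 0 in NAc (0.216% of all genes), 0 in DS (1.99%) and 0 in Amy (0.272%). Unadjusted p-values under 0.05 were found for 8, 21, 22 and 6 genes respectively. In NAc DESeq2 called 1 gene and the fit without a filter 5, in DS 4 were called without a filter and 4 with a cohort covariate, and in LCtx and Amy neither DESeq2 nor the fit without a filter called any. Challenge libraries of LCtx, NAc and Amy lay in 2 runs, and those of NAc used at 0 hr came from 1 of them. Acute and repeated LCtx had 1 library each at 4 hr. In LH 1 gene was called, where 0.264% of all genes were, 28 had an unadjusted p under 0.05, and 9 were called by DESeq2 and 6 without a filter. The gene called was Atp5j2, which lay in acute LH at 741 and 743 CPM at 0 hr and at 886 and 889 at 2 hr, and in repeated LH at 978.7 and 999.5 at 0 hr and 892 and 902 at 2 hr. Values were thus higher at 2 hr in acute and lower in repeated mice. The adjusted p over all time terms was 0.016. The largest log2 difference, 0.42, was in challenge mice at 4 hr, measured from a single 0 hr mouse, and challenge LH libraries lay in 2 runs. In the same test Ttr was lower (-1.36, adjusted p = 2.4e-06), 2 of 5 hypothalamic markers were lower, 1 of 5 endothelial and 1 of 6 mural markers were higher, and 7 of 81 cytosolic ribosomal protein genes were higher. Their part in the subunit values was not tested.

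Within DS of acute mice 3 of 87 genes were called over time, a share close to the 2.62% of all genes called, and all 3 were lower. An unadjusted p under 0.05 was found for 41 of the 87 genes and for 1797 of the 12918 genes tested, and the count called was 6 with DESeq2 and 12 with a cohort covariate. Ndufs8 was at 180.3 to 221 CPM in the 4 naive mice, 185 to 201 at 1 hr, 116 to 190.2 at 2 hr and 125 to 182 at 4 hr (-0.40 at 2 hr, adjusted p = 0.012). Uqcr10 was at 706 to 789 CPM at 0 hr and 523 to 664 at 2 hr (-0.34, adjusted p = 0.033), and Ndufa4 at 718 to 839 and 514 to 727 (-0.33, adjusted p = 0.018). At 2 hr the values overlapped with 0 hr for Ndufs8 and Ndufa4, and for Uqcr10 and Ndufa4 a pair of mice lay well below the other pair. The count was 0 without replicate 2, 1 without replicate 4 and 5 without replicate 1. Cytosolic ribosomal protein genes fell in the same test, 23 of 81 with a median of -0.26. Markers of other cells were called too: the choroid plexus gene Ttr was lower (-1.11, adjusted p = 0.03), 2 of 5 endothelial markers were higher, of 6 mural markers 2 were higher and 1 lower, and 1 of 6 astrocyte markers was lower. Their part in the subunit values was not tested. Repeated mice (0 genes, where 0.48% of all genes were called; 5 with unadjusted p under 0.05) and challenge mice (0, where 0.673% were; 2 with unadjusted p under 0.05) gave no call, and the difference between experiences in their time course was not tested.

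Levels were set side by side across structures over all runs, as a description. DS libraries lay in runs that held no other structure, so for DS run and structure cannot be told apart, and DS tissue of the same mice differed between runs as well. The highest structure median exceeded the lowest by a median factor of 1.35 over the 87 genes, and by more than 2 in 4 genes, all complex IV isoforms: Cox7a1 (4.88), Cox6a2 (4.17), Cox6b2 (2.28) and Cox4i2 (2.25). Cox4i2 passed the limit for members only in DS, where it was highest, so the choice of members bears on its factor. Cox6a2, a muscle-type isoform, lay at 4.97 to 11.9 CPM in the 24 LH libraries (median 7.79), with medians of 21.8 in LCtx, 22.8 in DS, 27.6 in Amy and 32.5 in NAc. LH did not overlap with any other structure, although the lowest DS library, at 11.97, lay just above it, and the other 4 structures overlapped with each other. Cox7a1, the other muscle-type isoform, was highest in LH. It lay at 14.9 to 27.5 CPM in LH (median 18.8), against medians of 3.84 in DS, 5.87 in LCtx, 6.15 in NAc and 7.81 in Amy, and the highest Amy library, at 15.3, overlapped with LH.

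Cox6b2, known as a testis-type isoform, had a median of 11.1 CPM in LH and of 4.88 to 6.49 elsewhere, with a single acute DS library at 46.4. Cox4i2, the isoform known for its response to low oxygen, was at 2.26 in Amy, 3.27 in LCtx, 3.48 in LH, 4.72 in NAc and 5.09 in DS (medians), with wide overlap. The common isoforms differed much less: Cox6a1 medians ran from 1320.3 in LH to 1639 in NAc.

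**Figure D5:**
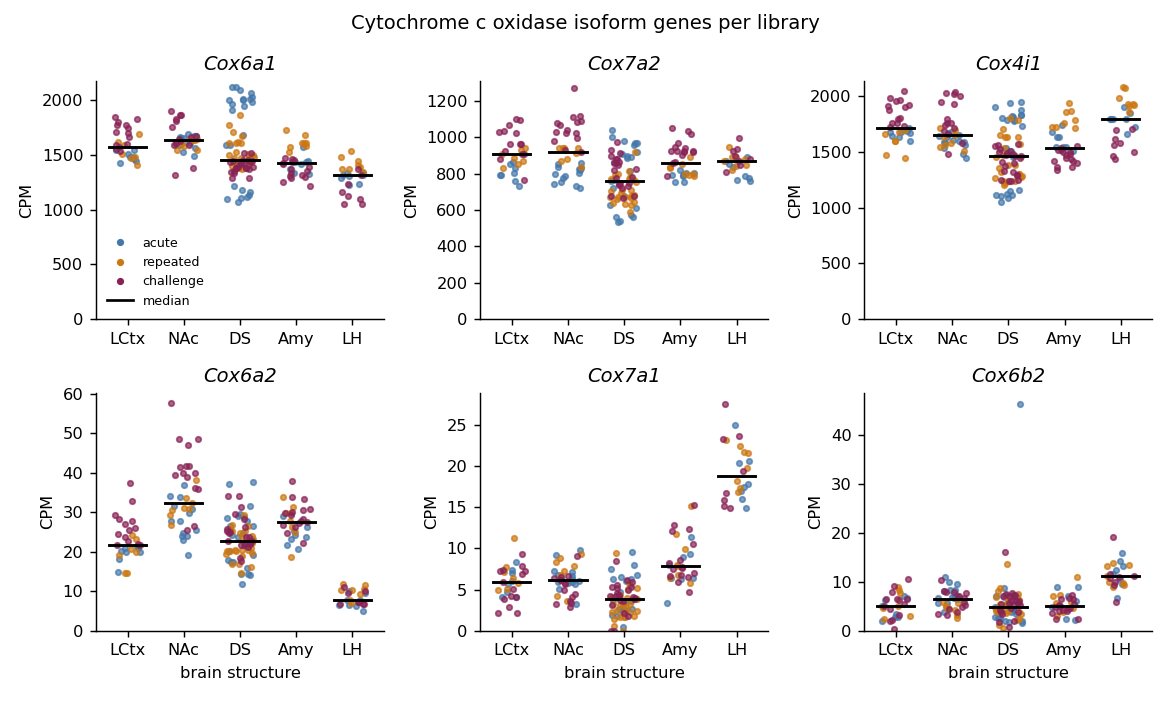
CPM (vertical axis, from 0) of 6 cytochrome c oxidase isoform genes in each library, by brain structure (horizontal axis), coloured by experience with a line at the median. Cox6a2 is lowest and Cox7a1 highest in LH, where their medians are 7.79 and 18.8, and the common isoforms in the upper row differ less.

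Amy and LH of the same 16 acute and repeated mice were compared with the mouse in the model. Only Cox6a2 was higher in Amy (1.59 ± 0.09, adjusted p = 2.4e-21), and 33 genes were lower, where 22.8% and 21.9% of all genes were called. The median was -0.23 against 0.0 over all genes. By role, 14 of 29 accessory and 3 of 7 core complex I subunits were lower, as were 3 of 8 in complex III, 5 of 16 in complex IV and 4 of 9 assembly factors, while complex II (1 of 4) and complex V (3 of 14) were near the share of all genes. Cox7a1 (-1.25 ± 0.12, adjusted p = 8.5e-13) and Cox6b2 (-0.98, adjusted p = 1.1e-07) led. Ndufa6, an accessory subunit of the matrix arm, lay at 436 to 498 CPM in acute Amy and 557 to 668 in acute LH, with no overlap, and differed by -0.48 ± 0.03 (adjusted p = 3.3e-20). Uqcrb of complex III (-0.44) and Atp5g3, a gene for the rotating c subunit of ATP synthase (-0.36), were lower as well.

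Challenge mice, which are other mice in 2 other runs, gave 3 genes higher and 25 lower in Amy than in LH, where 22.1% and 21.7% of all genes were called. Of the genes lower, 22 were on both lists (66.7% of the first and 88.0% of the second), and the differences of the 87 genes correlated at 0.96 (Pearson, a description across genes). Oligodendrocyte markers, all 7 lower in Amy (median -1.44 in acute and repeated mice, 0.535 to 0.895% of counts against 1.70 to 2.07% in LH), and Esrrg (-1.23) differed in the same direction, and 11 of 81 cytosolic ribosomal protein genes were lower and 2 higher. In acute and repeated mice all 3 parvalbumin interneuron markers (median -0.71), all 4 erythroid markers (-0.41), 4 of 5 hypothalamic and 2 of 6 mural markers were lower too, and all 5 microglial markers were higher (0.50). Of 6 astrocyte markers 3 were lower and 2 higher, and 1 of 5 endothelial markers was lower. Among 3 choroid plexus markers 1 was higher, and Ttr was lower (-0.28). Their part in the subunit differences was not tested.

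Between NAc and LCtx, every gene called was higher in NAc. In repeated mice 26 genes were higher and 0 lower, where 19.5% and 20.9% of all genes were called, with a median of 0.21. In challenge mice 21 were higher and 0 lower, where 21.6% and 22.1% were called, with a median of 0.19. The count of genes higher was close to the background in challenge mice, and by complex it ran from above to below that share, with 9 of 29 accessory complex I subunits and 2 of 14 complex V subunits higher. Ndufa1, an accessory complex I subunit, lay at 609 to 688 CPM in NAc and 369.5 to 408 in LCtx of repeated mice, with no overlap, a difference of 0.75 ± 0.04 (adjusted p = 1.3e-15), and of 0.67 in challenge mice. Cox6a2 (0.67 and 0.59), Uqcrb (0.39 and 0.43) and Atp5j2 (0.35 and 0.35) were higher in both sets, and 17 genes were on both lists (65.4% and 81.0%). Cox4i1 (0.01, adjusted p = 0.89) and Sdha (adjusted p = 0.99) were not called in repeated mice.

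The nuclear receptor Esrra was higher in NAc by 0.40 and 0.50. Gabpa, a GABP subunit, was higher in repeated mice (0.61, adjusted p = 0.00059), Esrrg was higher in challenge mice (0.52, adjusted p = 0.0015), and Ppargc1a was lower in repeated mice by 0.43 on the log2 scale and not called in challenge mice (-0.08, adjusted p = 0.52). Glycolytic genes went the other way in repeated mice, 7 of 15 lower in NAc, and in challenge mice 7 of 16 were lower and 1 higher. In the same comparisons cytosolic ribosomal protein genes were higher, 57 of 81 in repeated and 29 of 81 in challenge mice. All 7 oligodendrocyte markers were higher in NAc (median 2.05 in repeated and 1.81 in challenge mice), at 0.485 to 0.928% of counts against 0.14 to 0.196% in LCtx of repeated mice. Of 5 neuron markers 4 were lower in both sets, at 0.272 to 0.341% against 0.442 to 0.518% in repeated mice, and 4 (repeated) and 2 (challenge) of 5 endothelial markers were lower. All 3 parvalbumin interneuron markers (medians -1.50 and -1.12), 3 of 6 astrocyte and 3 of 6 mural markers were lower in both sets, and 2 of 3 choroid plexus markers were higher (1.42 and 0.61). Microglial markers were lower in 1 of 5 in repeated and 2 of 5 in challenge mice. Their part in the subunit differences was not tested.

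Against LH, challenge LCtx had 16 genes higher and 26 lower, where 28.2% and 28.0% of all genes were called, so the count lower was near the background. Complex II was lower in 3 of 4 genes (median -0.45), led by Sdhc (-0.66 ± 0.05, adjusted p = 9.9e-18), while complex IV had 6 higher and 5 lower. NAc had 31 higher and 10 lower, where 27.4% and 27.5% were called. No difference between complexes was tested. In NAc complex IV had 10 of 16 higher (median 0.35) and complex V 6 of 14 (median 0.23), while complex II had 0 higher and 2 of 4 lower (median -0.31), Sdhc and Sdha. Cox6a2 was higher by 2.39 ± 0.12 in NAc and 1.79 ± 0.13 in LCtx, and Cox7a1 was lower, at -1.71 and -1.77. Cox8a (0.77 in LCtx and 0.64 in NAc), Uqcr11 (0.61 and 0.86) and Ndufs8 (0.30 and 0.47) were higher in both, and Uqcrfs1 (-0.44 and -0.28) was lower in both. Both comparisons share the LH libraries. All 7 oligodendrocyte markers were lower than in LH (median -3.15 in LCtx and -1.38 in NAc), and all 5 microglial markers were higher in both. Parvalbumin interneuron markers were lower in 2 of 3 in LCtx and 3 of 3 in NAc, and choroid plexus markers in 2 of 3 and 1 of 3. Of 5 erythroid markers 4 were higher in LCtx and 0 in NAc, and mural markers were higher in 3 of 6 in LCtx and lower in 1 of 6 in NAc. Cytosolic ribosomal protein genes were higher in 34 of 81 in LCtx and 56 of 81 in NAc. The part of these lists in the subunit differences was not tested.

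Experiences in LCtx and NAc, and challenge in Amy and LH, lay in different runs and were not tested. The median differences of the 87 genes from acute on a log2(CPM + 1) scale were 0.06 for repeated and 0.22 for challenge in LCtx, and 0.09 and 0.23 in NAc, and for challenge they were 0.11 in Amy and 0.05 in LH. Over genes at the CPM minimum the medians lay between -0.06 and 0.02 in these comparisons. Run and experience cannot be told apart in these values. Acute LCtx libraries also held erythroid markers at 0.848 to 1.43% of counts, against 0.047 to 0.122% in challenge LCtx. Ndufs5, lower in repeated mice within the Amy and LH run, was at 22.3 to 35.4 CPM in acute and 10.8 to 15.7 in repeated LCtx, and at 35.0 to 45.7 in acute and 12.5 to 22.2 in repeated NAc, without overlap.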

How the data were processed

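3′-RNA-seq was performed on dissected brain tissue of mice given cocaine. Per the labels and the study's methods, the authors reverse-transcribed RNA with primers carrying barcodes and 8-base UMIs, trimmed poly(A), aligned reads with STAR to GRCm38, collapsed duplicates by UMI and counted them per gene with HTSeq, with versions and strand setting not given in the sources used here. The deposited values are raw counts of 19363 genes per library, and no normalization had been applied.

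Counts were tested in R 4.3.3 with edgeR 4.0.16 (quasi-likelihood, filterByExpr by group, TMM), with Benjamini-Hochberg adjustment over all genes tested. DESeq2 1.42.0 was an alternative. A gene was called at adjusted p under 0.05 and fold over 1.2. Experiences were compared within a run, as the mean over the 4 time points or at 0 hr, and structures were compared with the mouse (within run for challenge mice) as a covariate. In challenge mice 4 tissues sequenced in both runs entered once per run, so those libraries are not independent samples. Time was tested by F tests over experience-by-time groups with 1 library per mouse, and the log2 difference given is that of the time point farthest from 0 hr. Other alternatives were another scaling, no filter, 0 hr libraries alone, a cohort covariate, a replicate block and leaving out each replicate. CPM is counts divided by the library total. The comparisons of challenge with repeated mice, of the repeated cohorts, of 0 hr with later times, and of Amy with LH effects, and the use of transcript length (GENCODE M21, principal transcripts), were added after the data had been seen. The steps were tested on simulated counts. Mice and cohorts were taken from the labels.

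Genes named were the isoform genes, the core and catalytic subunits, and the called gene with the largest increase and decrease per role group and comparison, with the genes next to the CPM limit. Ndufs5 in LCtx and NAc, Atp5j2 in LH over time, and genes named beside a leading gene were chosen after their values were seen. Members and lists were chosen with earlier results of these data known. Same-numbered replicates showed 0 correlations of their deviations over 0.1 (8 pairs each in DS, Amy and LH). Amy and LH libraries of the same mouse, which are true pairs, also showed 0 over 0.1 (16 pairs, highest 0.06). The check therefore could not show whether the numbers pair samples. Pairs of libraries of different mice differed by more than sampling noise (lowest chi-square per degree of freedom 1.56 over 266 pairs).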

Additional observations from a re-analysis of the deposited data

Results flagged for a closer look

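The effect of repeated cocaine in LH differed between 0 hr and the later times for 2 genes, by a test of the difference itself. It was larger at 0 hr by 0.39 on the log2 scale for Atp5k (adjusted p = 0.033, edgeR) and by 0.35 for Atp5j2. The number of genes was 7 with DESeq2 and 5 without a filter. Atp5k lay at 490 and 511 CPM in naive mice, below the 6 later acute libraries, which began at 535. In repeated mice the 0 hr libraries, at 705 and 741, lay above all 6 later ones, which ended at 699.9. No group of 4 to 10 libraries tested held a library that stood apart in the level of the 87 genes. The acute and repeated LH groups held 2 libraries per time point, so that check did not cover them.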

How the results depend on the processing

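Of the counts and medians recomputed under the alternatives, 403 kept their size and 41 moved. The median of DS 0 hr repeated, 0.01, turned negative without a filter (-0.01) and without some replicates (to -0.04). The replicate block reduced the genes called in challenge DS from 38 to 23 and those at 0 hr in abstinent DS from 18 to 0, with a median of 0.26 in place of 0.20, and raised those over time in acute DS from 3 to 7. Whether the replicate numbers pair the samples could not be told from the check of their deviations. Without a filter, or with 0 hr libraries only, the DS 0 hr repeated count was 3 in place of 5. The Amy 0 hr count was 11 with DESeq2, 10 without a filter and 9 with 0 hr libraries only, in place of 3. For time, NAc gave 1 (DESeq2) and 5 (no filter) in place of 0, all DS experiences 4 (no filter) and 4 (cohort covariate) in place of 0, acute DS 6 (DESeq2), 9 (no filter) and 12 (cohort covariate) in place of 3, and LH 9 (DESeq2) and 6 (no filter) in place of 1. The LH difference between 0 hr and later gave 7 (DESeq2) and 5 (no filter) in place of 2. The cause was not tested.

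Leaving out a replicate gave 0 to 5 genes for DS 0 hr repeated (median -0.04 to 0.03), 5 to 18 for DS 0 hr abstinent, 0 to 1 for Amy 0 hr (median 0.03 to 0.15), 2 to 5 for LH, 20 to 29 for LH 0 hr and 0 to 5 for acute DS over time. It gave 35 to 39 for DS challenge, 16 to 22 for DS repeated, 8 to 14 for Amy repeated and 31 to 38 for Amy against LH. At 0 hr this leaves 1 mouse in a group, assumed to vary like the other groups. Of the values for single genes, 1162 kept their call, 98 lost it and 5 moved. Groups of 2 mice per time point, and the few counts of genes under 20 CPM such as Cox4i2 and Cox6b2, limit the precision, and the smallest detectable difference was not computed.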
